A study of Mus musculus with 12 samples.

Results

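The cells described here are Ogn-high cells of line 24, a Mif knockout mouse melanoma line from a study of tumours. They were selected on raw counts of the genes named next. Members carried at least 3 unique molecular identifiers (UMIs, each the tag of 1 captured transcript) of Ogn and passed a gate meant to leave non-cycling cells that are neither immune nor endothelial. That gate allowed at most 1 UMI of the cycling genes Mki67 and Top2a together, no UMI of Ptprc, Cd3e or Pecam1 and at most 1 of Tyrobp. Of 29525 line 24 cells with 1 clear hashtag, 14002 passed the gate, 3469 of them as Ogn-high members and 6480 with no Ogn UMI, the Ogn-0 cells used for comparison. The whole series held 116375 such cells.

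The study, whose title concerns the course of melanoma rejection over time, dissociated SCC35 tumours, tagged each with a hashtag antibody, sorted live cells and read the 5′ ends of their transcripts in 6 libraries of 151385933 to 239699029 UMIs. Groups were samples of the Mif knockout lines 24 and 19, of the lines 15 and 18 labelled as knockout controls, and of samples that the hashtag sheet calls WT. Line 24 gave 10 hashtagged samples. Samples A and B of day 0, sample A of day 6 and samples A and B of days 10 and 16 came from a library of line 24 alone, called single below, and samples C of days 6, 10 and 16 came from a library that mixed lines. The sources used here do not say what day 0 is, so all are called samples and not tumours, nor do they say whether a line is 1 clone, how Mif was disrupted or whether letters stand for separate mice. The p-values therefore measure the spread between these tagged samples. The single library and the mixed library shared 1508 cell barcodes, 4.82% of the smaller library, near the 3.83% to 5.05% between any pair of libraries.

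Ogn encodes osteoglycin, also called mimecan, a small leucine-rich proteoglycan that cells secrete into the matrix, where proteins of this family bind collagen fibrils and growth factors. In the mouse genome it sits beside its relatives Omd (osteomodulin), Aspn (asporin) and Ecm2. Ccn5 is a secreted matricellular protein of the CCN family that lacks the carboxy-terminal domain of its relatives, and Mmp3, stromelysin 1, is a secreted protease that cleaves proteoglycans, fibronectin and other metalloproteinases.

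The Ogn gene lies on chromosome 13 at 49608046 to 49624501 of GRCm38, on the plus strand, with 7 exons in its longest GENCODE transcript. Aspn ended 40480 bases and Omd 15223 bases before the start of Ogn on the same strand, while the minus-strand gene Cenpp spanned all of them. Ccn5 lies on chromosome 2 at 163820861 to 163833146 and Mmp3 on chromosome 9 at 7445822 to 7455975. The 250 bases before the RefSeq start of the 3 neighbouring proteoglycan genes and of Mmp3 are shown because Ogn, Omd and Aspn stood together in these cells and Mmp3 stood opposite. Capitals mark matches on either strand to the letters TATAAA (the TATA box), GGAATG (TEAD factors), TGTGGT (RUNX factors) and TGANTCA (AP-1). The intervals in GRCm38.p6, all on the plus strand, are chr13:49607765-49608014 for Ogn, chr13:49582212-49582461 for Omd, chr13:49544193-49544442 for Aspn and chr9:7445572-7445821 for Mmp3.
Ogn: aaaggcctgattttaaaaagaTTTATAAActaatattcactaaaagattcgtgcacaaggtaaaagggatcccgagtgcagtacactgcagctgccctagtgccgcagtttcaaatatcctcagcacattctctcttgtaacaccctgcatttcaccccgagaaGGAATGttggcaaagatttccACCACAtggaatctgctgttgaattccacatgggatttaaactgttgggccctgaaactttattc
Omd: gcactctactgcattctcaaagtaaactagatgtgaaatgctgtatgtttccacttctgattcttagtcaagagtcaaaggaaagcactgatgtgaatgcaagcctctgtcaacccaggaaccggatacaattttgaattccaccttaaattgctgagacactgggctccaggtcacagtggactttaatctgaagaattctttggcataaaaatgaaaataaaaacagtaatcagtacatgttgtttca
Aspn: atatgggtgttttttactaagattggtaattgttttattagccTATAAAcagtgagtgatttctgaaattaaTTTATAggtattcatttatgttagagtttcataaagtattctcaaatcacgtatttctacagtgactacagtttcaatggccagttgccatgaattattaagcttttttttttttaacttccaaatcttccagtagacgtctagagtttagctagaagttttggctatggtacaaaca
Mmp3: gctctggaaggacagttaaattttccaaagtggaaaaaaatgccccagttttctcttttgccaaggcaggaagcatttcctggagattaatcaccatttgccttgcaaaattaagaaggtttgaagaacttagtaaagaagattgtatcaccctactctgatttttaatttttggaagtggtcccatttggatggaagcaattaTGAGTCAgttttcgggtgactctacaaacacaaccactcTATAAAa
Ogn held TATAAA on both strands from 229 and 227 bases before its start, overlapping, GGAATG from 86 bases before it and TGTGGT on the minus strand from 65 bases before it. Aspn held TATAAA from 207 bases before its start and, on the minus strand, from 178. Mmp3 held TGANTCA from 46 bases and TATAAA from 7 bases before its start, and Omd held none of the 4. These letters are common: of 32851 promoters of this length in RefSeq, 6.75% held TGANTCA, 12.4% TATAAA, 12.6% GGAATG and 14.0% TGTGGT. A match is given as a description and says nothing of a factor's presence.

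Ogn-high cells made up most gated cells at day 0 and a minority from day 6 on. Their share was 74.3% in day 0 A (exact binomial 95% interval 70.8 to 77.6) and 66.3% in day 0 B (64.1 to 68.5). From day 6 to day 16 the 5 samples of the single library had 12.3% to 24.1%, and the 3 of the mixed library had 5.53% to 16.7%. No later sample reached the day 0 range. Within the single library the shares were 24.1% at day 6, 23.8% and 19.7% at day 10 and 12.3% and 12.9% at day 16. The mixed library gave 12.5% at day 6, 16.7% at day 10 and 5.53% at day 16. These shares are a description, since Ogn set the gate, and the intervals cover counting error only. Among cells with at least 3000 UMIs, each cut to 3000, the day 0 shares were 64.5% and 59.2%, and the later ones 2.85% to 20.1%. Shallower cells were left out wherever this cut is used. In day 16 B 1283 of 3201 gated cells remained, and in day 16 A 296 of 560.

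The Ogn signal of gated cells was above that of immune cells, which should lack Ogn, in every later sample, but by little in some. Among immune cells of the same samples (at least 2 Ptprc UMIs and a UMI of Cd3e or Tyrobp), 6.29% to 12.3% in the single library and 2.03% to 2.94% in the mixed library held at least 3 Ogn UMIs. Day 16 B, at 12.9% of gated cells against 12.1% of 760 immune cells (9.87 to 14.6), cannot be told from that background. Day 16 A, at 12.3% (9.71 to 15.3) against 7.73% (4.29 to 12.6), overlapped it. Those shares were taken at unequal depth. Among cells of at least 3000 UMIs, cut to 3000, gated and immune shares were 18.7% and 13.3% (30 immune cells) in day 6 A. They were 20.1% and 8.43% in day 10 A, and 17.0% and 11.9% in day 10 B. Day 16 A had 10.8% and 7.23%, and day 16 B had 12.5% and 9.95%. In the mixed library they were 11.0% and 3.95% at day 6, 11.4% and 1.21% at day 10, and 2.85% and 1.16% at day 16. No intervals were computed for the cut shares. Summed Ogn was 411 CPM (UMIs per 1000000 UMIs of the same cells) in gated cells of day 16 B and 381 in its immune cells. It was 492 and 288 in day 6 A, 452 and 277 in day 10 A, 445 and 340 in day 10 B and 336 and 262 in day 16 A. In the mixed library the same pair was 222 and 66.0 at day 6, 245 and 55.7 at day 10, and 106 and 36.1 at day 16. Day 0 held 4 immune cells in all, so it gives no background of its own. Its samples were read in the single library, whose later immune cells reached 12.3% and 381 CPM. Those immune cells came from other samples than the gated cells of day 0. The gated cells of day 0 B and A had shares of 66.3% and 74.3% and summed Ogn of 1525 and 1697 CPM. How many members of any sample owe their Ogn UMIs to free RNA was not tested.

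**Figure D1:**
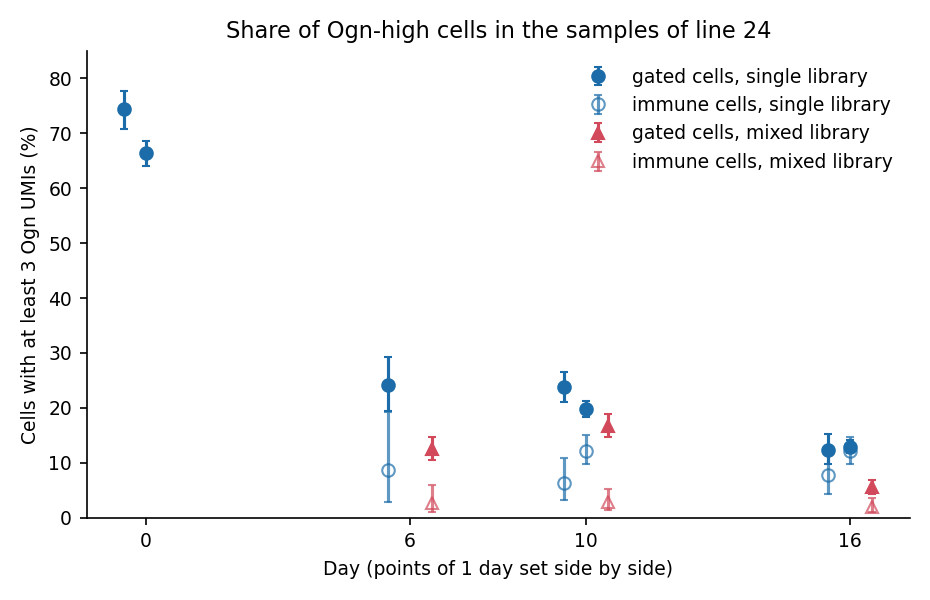
Share of cells with at least 3 Ogn UMIs (y axis, percent) by day (x axis) in the 10 samples of line 24, filled for gated cells and open for immune cells, with exact binomial 95% intervals; circles or triangles mark the single or the mixed library. The day 0 samples stand at 74.3% and 66.3%, all later ones at or below 24.1%, and the immune cells of the single library reach 12.3%.

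Members carried far more Ogn at day 0 than later. The median was 11 Ogn UMIs per member at day 0 and 4 at days 6 to 16 in either library, and the highest member held 95. Members just inside the gate, at exactly 3 UMIs, were 143 cells (8.45%) at day 0, 469 (34.2%) in the later single-library samples and 144 (35.6%) in the mixed library. Cells just outside it, at 2 UMIs, numbered 179, 881 and 262 in the same order. Summed over members, Ogn was 2076 and 2072 CPM in day 0 A and B, 1140 to 1276 in the later samples of the single library and 575 to 908 in the mixed library, 3 ranges that did not overlap.

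The label names Ccn5 and Mmp3 beside Ogn, and the data bear out Ccn5 and go against Mmp3. Ccn5 in members was 210 and 201 CPM at day 0, 77.7 to 195 in the later single-library samples and 47.2, 85.8 and 115 in the mixed library. In Ogn-0 cells it was 25.7 and 31.9 at day 0 and 1.90 to 45.0 later. The lowest member value, 47.2 in day 6 C, was above the highest Ogn-0 value, 45.0 in day 10 B, and Ccn5 was higher in members in 10 of 10 samples (134 ± 55.3 against 27.0 ± 14.2, SD). Mmp3 ran the other way in 10 of 10 samples. It was 57.4 and 42.5 CPM in day 0 members against 386 and 468 in day 0 Ogn-0 cells. From day 6 on it was 8.09 to 90.8 in members and 36.1 to 169 in Ogn-0 cells, and these ranges overlapped (52.7 ± 30.9 against 172 ± 142 over all 10). The members are therefore called by Ogn, with Ccn5, and Mmp3 stood higher in the cells without Ogn. Both genes were chosen with these values known, so no test is given for them.

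Within the gate Ccn5 was higher in cells with more Ogn, and Mmp3 was lower in them most plainly at day 0. At day 0 Ccn5 went from 30.7 CPM in cells with 0 Ogn UMIs to 80.1 at 2, 115 at 3 and 231 at 10 or more, while Mmp3 went from 452 to 114, 94.2 and 38.5. The cells just outside the gate at 2 UMIs therefore lay between the Ogn-0 cells and the members, nearer the members for Mmp3. In the later single-library samples Ccn5 went from 38.5 at 0 to 79.8 at 2, 86.8 at 3 and 213 at 10 or more. Mmp3 did not fall evenly there: it was 114 at 0, 123 at 2, 86.8 at 3, 108 at 4 to 5, 64.6 at 6 to 9 and 42.8 at 10 or more. In the mixed library Ccn5 was 20.01 at 0, 65.5 at 2, 64.1 at 3, highest, 97.3, at 4 to 5 UMIs and 71.4 at 10 or more. Mmp3 in that library was 89.5 at 0, 59.7 at 1, 40.9 at 2, 76.1 at 3, 39.9 at 4 to 5, 37.5 at 6 to 9 and 42.8 at 10 or more, so cells just inside the gate were above those just outside it. At day 0 and 3000 UMIs per cell, 37.3% of members held Ccn5, 5.81% held Mmp3 and 1.60% held both, against 4.70% with Ccn5 and 38.0% with Mmp3 among Ogn-0 cells. In the mixed library 15.0% of members held Ccn5, 7.75% Mmp3 and 1.87% both, and in the later single-library samples 24.9%, 10.7% and 2.43%. Mmp3 was found in 9.49% and 14.8% of the Ogn-0 cells of these sets, and without the cut to 3000 UMIs in 10.1% of members against 8.002% of the shallower Ogn-0 cells in the mixed library and 14.0% against 12.1% in the later single-library samples. A share this low with both is bounded by the low share with each. The cut left out 2251 Ogn-0 cells and 262 members in the later single-library samples, 1077 and 31 in the mixed library and 115 and 126 at day 0. Without that cut the day 0 shares were 53.2%, 9.04% and 4.08% of members and 10.3% and 36.1% of Ogn-0 cells.

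**Figure D2:**
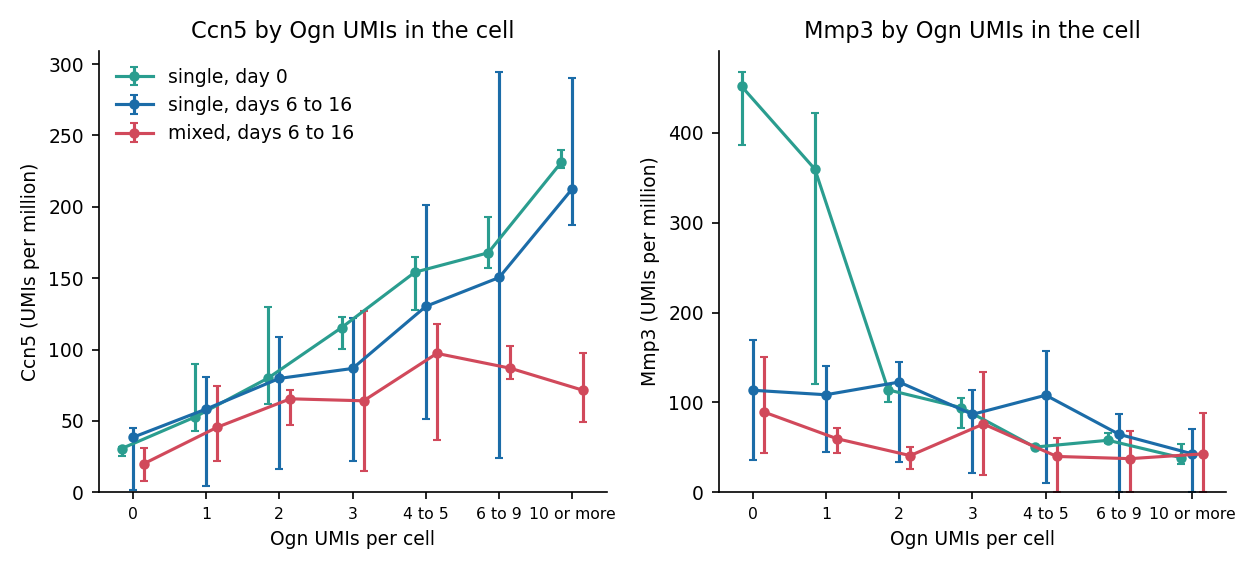
Ccn5 (left) and Mmp3 (right) in CPM (y axis) over gated line 24 cells binned by their Ogn UMIs (x axis), with points for the pooled cells of each set and bars from the lowest to the highest sample. At day 0 Ccn5 goes from 30.7 to 231 and Mmp3 from 452 to 38.5.

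Mif, the cytokine whose gene was targeted, checks the line label. Gated cells of line 24 held 591 ± 318 CPM of Mif (SD, n = 10) and those of line 19 held 155 ± 127 (n = 11), against 2360 ± 431 (n = 7) in line 15, 2225 ± 175 (n = 7) in line 18 and 2504 ± 253 (n = 3) in the WT samples. Members held 250 and 241 at day 0, 372 to 517 in the later single-library samples and 935, 954 and 1506 in the mixed library, all below the means of lines 15 and 18 and of WT. The 1506 of day 16 C was above the lowest Ogn-high value of line 18, 1498. The mixed library also held samples of line 18 and WT, and the part of their RNA in these values was not tested. Members and Ogn-0 cells overlapped, and the edgeR test found no difference between them (log2 difference -0.08, SE 0.09, adjusted p = 0.554).

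Fibroblast markers were detected in members, and most pigment genes were at or near 0. The summed level of the 20 fibroblast markers was 3497 to 5324 CPM in members and 1601 to 5015 in Ogn-0 cells. Of 11 tested 4 were higher, 5 lower and 2 not called, with a median of -0.21, and without the cells that held an Xist UMI, described further on, 6 of 8 were higher and none lower. Ly6a (Sca-1) was higher in members (lowest, median and highest 1910, 2378 and 3459 CPM against 669, 1263 and 1955; log2 difference 0.91, SE 0.11, adjusted p = 1.9e-06), as were Gsn, Serpinf1 and Pdgfra, while Thy1, Mfap5 and others were lower. Among pigment genes Tyr was at 0 in both, Pmel averaged 0.183 and Dct 0.132 CPM in members, and Sox10 1.31 against 4.17. Of the 16 pigment and neural crest markers 3 were tested, with 1 higher, 1 lower and 1 not called and a median of -0.10. These were the neural crest factors Pax3, at 116 against 89.5, and Sox9, at 170 against 175, and the pigment cell regulator Mitf, at 9.52 against 11.8. In the edgeR test Pax3 was higher (0.32, SE 0.07, adjusted p = 0.00227), Mitf was lower (-0.43, SE 0.16, adjusted p = 0.0367) and Sox9 was not called (adjusted p = 0.394). The 8 endothelial markers summed to 311 to 572 CPM in members, 195 to 376 in Ogn-0 cells and 74.5 to 158 in immune cells. Plvap, at a mean of 343 against 206 (0.68, adjusted p = 9.02e-08), and Egfl7 (0.63) were higher of 3 tested, and Flt1 was not called. The others were below the count filter: Cdh5 averaged 2.20, Tie1 0.185, Cldn5 0.228, Kdr 0.0867 and Emcn 0.0316 CPM. The labels do not tell tumour cells from fibroblasts of the host.

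Depth and marker levels of other cell types moved with the gate. Members held a median of 4292.5 to 6951 UMIs by sample and Ogn-0 cells 1715.5 to 5992, with the larger value in members in every sample. The 10 macrophage markers summed to 45.3 to 257 CPM in members, 64.4 to 590 in Ogn-0 cells and 4059 to 9654 in immune cells. The T and NK cell markers summed to 194 to 592, 227 to 996 and 1512 to 3547. Their part in the differences below was not tested beyond the alternatives given beside them. In sums over cells, fewer cells with a gene and less RNA of it per cell cannot be told apart.

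Across the 10 samples, 2941 of 8999 genes tested differed between members and Ogn-0 cells of the same sample (32.7% called; 1415 or 15.7% higher and 1526 or 17.0% lower; edgeR quasi-likelihood test with sample as a block, Benjamini-Hochberg adjusted p under 0.05). Counts of genes below are to be read against these shares, and counts for a subset of the data against those of that subset. The mixed library alone had 606 higher and 614 lower of 9707, and day 0 alone 1320 and 1303 of 10166. Cells with 0 Xist UMIs had 1385 and 1481 of 8815, and cells of 5000 to 15000 UMIs 1056 and 1179 of 8005. Genes were named as higher from the 10 largest fold changes among 653 that passed, had a mean log2 CPM of at least 4 and were higher in every sample, and as lower from the 10 largest among 374 found in the same way. The gate genes, Ccn5 and Mmp3 are in none of these counts. For the genes so named, the same direction in 10 of 10 samples was a condition of the choice and no further result.

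Secreted and membrane proteins were among the genes named as higher, and the matrix lists as a whole, given further on, were split. Aspn, the neighbour and relative of Ogn that binds collagen and TGF-beta, was lowest, median and highest at 50.1, 124 and 246 CPM in members and at 2.57, 16.5 and 51.8 in Ogn-0 cells. Only the extremes of the groups overlapped, and Aspn was higher in 10 of 10 samples (log2 fold change 2.50, SE 0.13, adjusted p = 4.74e-11). Thbs1, thrombospondin 1, an activator of latent TGF-beta, was at 347, 838 and 1933 against 184, 216 and 340, with no overlap (1.74, SE 0.17, adjusted p = 1.84e-07). Prss23, a secreted serine protease, was at 231, 509 and 931 against 80.2, 144 and 221, again with no overlap (1.69, SE 0.11, adjusted p = 9.19e-10). Thbs1 and Prss23, like Aspn, were higher in members of 10 of 10 samples. Thbs1 was also high in immune cells, at 228 to 643 CPM from day 6 on, above the Ogn-0 cells of the same sample in 8 of 8 and above the members in day 6 C (359 against 347). Aspn and Prss23 averaged 20.3 and 111 in immune cells, below their members' means.

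Mme, the membrane peptidase neprilysin (CD10), was at 70.3, 97.0 and 148 CPM in members against 17.3, 24.3 and 64.6 (1.75, SE 0.14, adjusted p = 1.4e-08). Its groups did not overlap. The basement membrane protein Nid2 (1.75, SE 0.14), the elastic fibre protein Fbln5 (1.90, SE 0.22), the aggrecanase Adamts5 (1.63, SE 0.19) and the growth factor Bmp4 (1.54, SE 0.18) averaged 35.7, 26.0, 36.4 and 33.4 CPM in members and 10.2, 4.94, 10.0 and 11.0 in Ogn-0 cells. Each was higher in 10 of 10 samples, with adjusted p of 2.27e-08, 1.47e-06, 1.56e-06 and 9.82e-07.

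**Figure D3:**
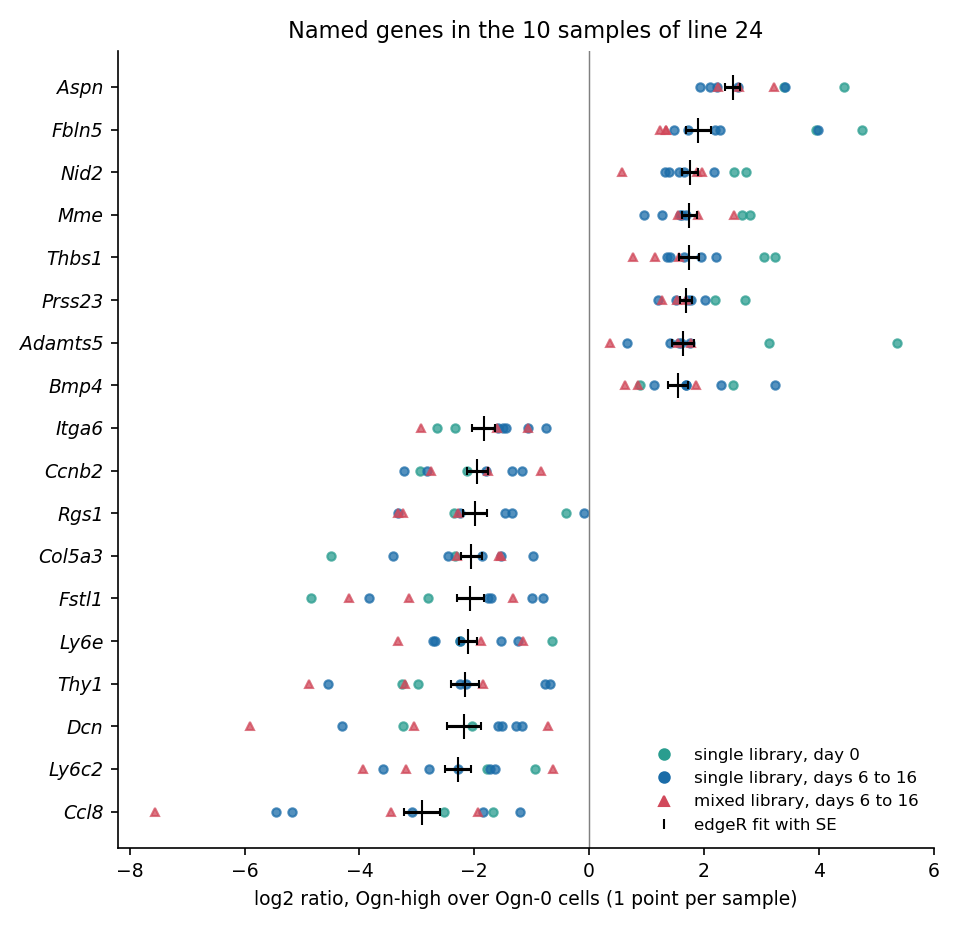
log2 ratio of members over Ogn-0 cells (x axis) for the named genes (y axis), 1 point per sample, coloured by library and day, with the edgeR fold change and its SE in black. Every sample lies on the side of the fitted value, as the choice of these genes required, from 2.50 for Aspn down to -2.92 for Ccl8.

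The genes named as lower mixed matrix genes of fibroblasts, genes of immune cells and a cyclin. The collagen-binding proteoglycan Dcn, decorin, averaged 48.2 CPM in members and 178 in Ogn-0 cells (-2.18, SE 0.29, adjusted p = 7.91e-06), the secreted glycoprotein Fstl1 15.4 and 64.5 (-2.07), the collagen chain Col5a3 7.91 and 31.5 (-2.05), and the surface glycoprotein Thy1 9.95 and 44.1 (-2.17). A second set stood higher still in immune cells: the chemokine Ccl8 averaged 3.48, 42.5 and 108 CPM in members, Ogn-0 cells and immune cells (-2.92 between the gates), the monocyte and T cell protein Ly6c2 10.7, 51.0 and 491 (-2.29), its relative Ly6e 35.4, 153 and 905 (-2.11), and the G protein regulator Rgs1 9.78, 38.6 and 378 (-1.99). The laminin receptor subunit Itga6 (9.27 and 32.8, -1.83) and Ccnb2 complete the 10, each lower in 10 of 10 samples. Of size like these, the fold changes of Tnc, the matrix glycoprotein tenascin C (22.2 and 152 CPM, -3.04), the collagen cross-linking enzyme Lox (4.78 and 26.3, -2.57), the elastic matrix protein Fbln2 (15.8 and 80.0, -2.55) and the proteoglycan Lum (10.8 and 47.4, -2.20) held in 9 of 10 samples, since none had a UMI in Ogn-0 cells of day 0 A. The same held for Xist, the RNA of the inactive X chromosome in female cells (13.3 against 72.9, -2.44, and 342 in immune cells).

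Xist marked a minority of Ogn-0 cells that held most of the RNA of the matrix genes lower in members that are named next. An Xist UMI was found in 132 of 3469 members and in 860 of 6480 Ogn-0 cells, and in 54.6% to 68.4% of immune cells from day 6 on. These Xist cells held 3.41% of the members' UMIs and 10.8% of those of Ogn-0 cells. In the Ogn-0 cells they held 87.9% of the UMIs of Tnc, 86.7% of Lox, 83.7% of Fbln2, 83.0% of Lum, 88.9% of Dcn, 81.3% of Bgn and 77.7% of Col1a1. Other matrix genes were not held there to that extent: the share was 11.4% for Spp1, 8.30% for Ccn5, 18.6% for Mmp3 and 24.3% for Aspn. It was 5.36% for the cyclin Ccnd1. Lower depth hides Xist, so cells with none may still carry it. With Xist cells left out of both gates, an alternative added after the data had been seen, 2866 genes were called, and Tnc (15.5 against 13.1 CPM) and Lum (4.95 against 5.92) were below the count filter, as were Ccl8, Thy1, Fstl1 and Col5a3. There Ccnb2, Itga6, Ly6c2, Ly6e and Rgs1 were still lower, and Dcn was not called (-0.80, adjusted p = 0.06).

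**Figure D4:**
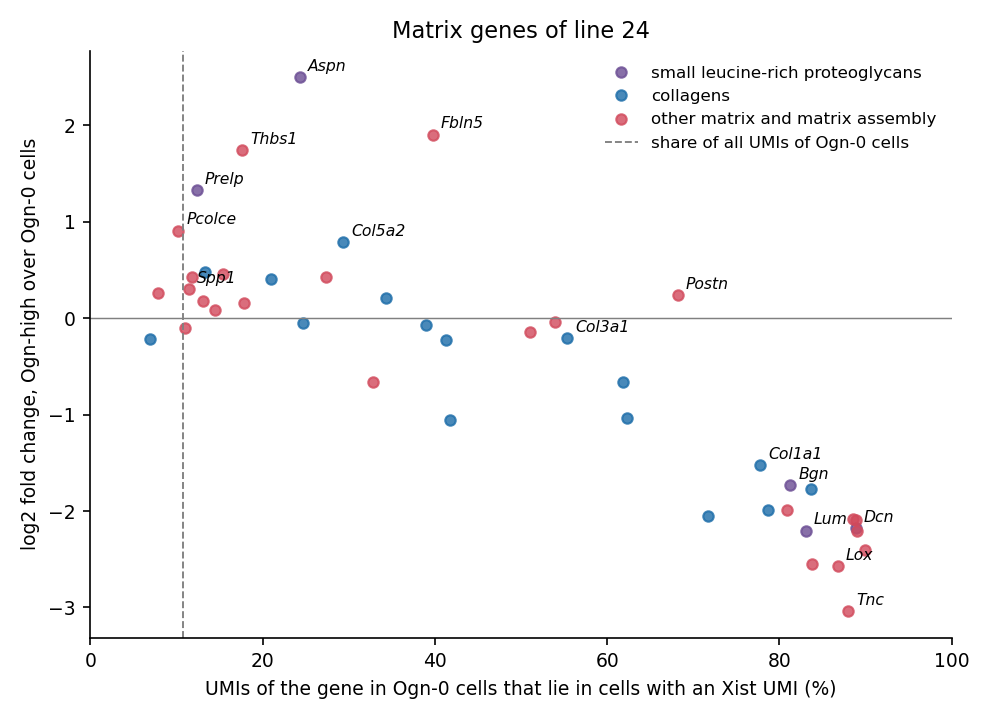
log2 fold change of members over Ogn-0 cells (y axis) for matrix genes against the share of their Ogn-0 UMIs that lie in cells with an Xist UMI (x axis, percent), 1 point per gene, with colours for the gene lists and a dashed line at 10.8%, the share of all UMIs. Dcn, Lum, Bgn, Tnc, Lox and Fbln2 lie at the lower right, at 81.3% to 88.9%, and Aspn at the upper left, at 24.3%.

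Within the small leucine-rich proteoglycan family, to which Ogn belongs, the members' pattern was split. Of 5 tested relatives of Ogn 2 were higher, Aspn and the basement membrane anchor Prelp (45.2 against 16.3 CPM, 1.33, SE 0.20, adjusted p = 3.33e-05), and 3 were lower, Dcn (-2.18), Lum (-2.20) and Bgn (-1.73). The list's median was -1.73 against -0.01 over all genes. Without Xist cells it was 2 higher and none lower of 4, with a median of 0.56. Omd was below the count filter, but its values did not overlap: 5.55, 18.8 and 37.5 CPM in members against 0, 1.53 and 3.34 in Ogn-0 cells. Ecm2, the other neighbour of this family, averaged 1.62 against 1.17. The tested neighbours outside the family did not share the pattern, with Nol8 (-0.48) and Iars (-0.30) lower and Bicd2 (0.31) not called. Cenpp, Ippk, Fgd3 and Zfp484 were not among the genes tested.

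Collagens as a list were not higher in members: 3 of 16 tested were higher, 7 lower and 6 not called, with a median of -0.22. Col5a2, a chain that nucleates fibrils, was at 259, 325 and 478 CPM against 84.97, 189 and 283 (0.79), and the basement membrane chain Col4a1 (0.41) and Col8a1 (0.48) were higher too. Col1a1, the main fibril chain, was lower (-1.52). Without Xist cells 8 of 13 were higher and none lower. There Col3a1, not called with all cells (-0.21, adjusted p = 0.348), was higher by 0.83, and Col1a1 was at 0.15 (adjusted p = 0.63). For other matrix genes, 8 of 24 were higher and 9 lower, and 12 of 15 were higher and none lower without Xist cells. The higher ones included Pcolce, which helps trim procollagen (955, 1172 and 1237 against 360, 605 and 732 CPM, no overlap, 0.91, SE 0.08, adjusted p = 8.06e-08). Spp1 (osteopontin) was at a mean of 13203 against 10270 (0.30), and Fn1 (fibronectin), Sparc and Lama4 were higher by 0.43, 0.43 and 0.46. Postn, periostin, was not called with all cells (0.24) and was higher without Xist cells (1.65).

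The tested relatives of Ccn5 were higher in members, 3 of 3 with a median of 0.96. Ccn1, an integrin-binding matricellular protein, was at 645, 892 and 1172 CPM against 173, 465 and 658 (0.96), and Ccn4 at 62.9, 81.5 and 134 against 23.0, 41.0 and 60.8 with no overlap (0.99). Ccn3 averaged 28.0 against 18.2 (0.63). Ccn2, the best known target of TGF-beta and YAP in this family, was at 0.103 against 6.32 and below the count filter.

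Among matrix proteases and their inhibitors other than Mmp3, 3 of 9 tested were higher and 3 lower, with a median of 0.11. Mmp2, gelatinase A (144 against 74.7 CPM, 0.92), Mmp11 (0.45) and the inhibitor Timp2 (0.50), which helps activate Mmp2, were higher. Timp1, an inhibitor that blocks most of the family, averaged 357 against 694 (-0.96), and Mmp9 (-1.43) and Mmp19 (-0.41) were lower too. Without Xist cells the counts were 5 higher and 2 lower of 9.

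Of the TGF-beta genes, 6 of 17 tested were higher and 2 lower, with a median of 0.13. The ligands Tgfb2 (71.3 against 32.3 CPM, 0.97, SE 0.12, adjusted p = 1.98e-06, no overlap), Tgfb3 (0.60) and Bmp4 were higher, as were the receptor Tgfbr2 (0.59) and the response genes Tgfbi (0.49) and Pmepa1 (0.72). Tgfbi averaged 172 CPM in members and 121 in Ogn-0 cells, and 386 in immune cells. Inhba, a subunit of activin, and its antagonist Fst were lower (-0.72 and -0.56). In the IGF axis 2 of 6 were higher, Igfbp7 (370, 736 and 1074 against 167, 303 and 502 CPM, 1.23, SE 0.15, adjusted p = 2.37e-06) and Igf2r (0.24), and none were lower. Of Wnt readouts 2 of 19 passed the count filter and neither was called. Of osteoblast genes, with which osteoglycin was once linked by name, 1 of 7 was higher (Spp1) and 3 were lower, among them Mgp (-0.73), an inhibitor of calcification. The bone enzyme Alpl was at 0.154 CPM in members.

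Spry1, a feedback inhibitor of receptor tyrosine kinase signalling, was higher in members (124, 228 and 310 CPM against 56.5, 88.6 and 150, 1.14, SE 0.10, adjusted p = 3.98e-08). Of the MAPK feedback list 2 of 15 were higher and 8 lower, with a median of -0.25, the lower ones including the ERK phosphatase Dusp6 (-0.63) and the ERK-dependent factor Etv5 (-0.89). Il17rd, another feedback inhibitor, was higher (0.49). The counts were 2 higher and 1 lower in the mixed library alone, with a median of -0.11, where 606 genes were higher and 614 lower of 9707 tested.

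Complement genes were mostly higher, 4 of 7 with 2 lower and a median of 0.69. The higher ones included the C1 proteases C1s1 (86.2 against 36.6 CPM, 1.09) and C1ra (1.11) and Cd59a (0.69), which blocks the membrane attack complex. The lower ones were Cfb (-0.94), the serine protease of the alternative pathway, and the C1 inhibitor Serping1 (-1.60). Without Xist cells 4 of 5 were higher and none lower.

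Stromal chemokines and cytokines were split, with 5 of 15 higher, 8 lower and a median of -0.59. The neutrophil attractant Cxcl1 (2479 against 1482 CPM, 0.78), the IL-33 receptor Il1rl1 (332 against 174, 0.92), Il6 (0.80), Csf1 (0.61) and Ccl2 (0.42) were higher. Il33 itself (-1.53), Cxcl14 (-2.24), Cxcl16 (-1.56), Cxcl2 (-1.05) and Il11 (-0.86) were lower. Without Xist cells the counts were 6 higher and 3 lower of 12.

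Interferon-response genes were higher in members, 11 of 19 tested with 1 lower and a median of 0.42. Ifit3, an antiviral tetratricopeptide protein, was at 83.3, 137 and 273 CPM against 18.0, 69.5 and 122 (1.16, SE 0.20, adjusted p = 0.000153), and Ifit1 (0.94), Isg15 (0.68) and Bst2 (0.59) were higher too. The 1 lower gene was the T cell attractant Cxcl9 (-1.02). In the day 0 samples alone, which held 4 immune cells but shared the single library with later samples that held more, 17 were higher and 1 lower. In cells of 5000 to 15000 UMIs 13 were higher and none lower, without Xist cells 11 and none, and in the mixed library 7 and 1. Of MHC class I genes 5 of 11 were higher and none lower, with a median of 0.17, among them the heavy chain H2-K1 (0.31, adjusted p = 0.00521). B2m, its light chain, was not called (0.15, adjusted p = 0.062). MHC class II genes were lower, 5 of 6 with a median of -1.23, and so were 7 of 7 macrophage markers with a median of -1.43. In cells of 5000 to 15000 UMIs none of either list was called.

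Cell cycle genes were lower, 15 of 17 with a median of -1.02, although both gates admitted at most 1 UMI of Mki67 and Top2a. Ccnb2, cyclin B2, was at 2.28, 6.70 and 14.8 CPM in members against 21.1, 30.5 and 41.8 with no overlap (-1.95). Birc5 (-1.62), the replication clamp Pcna (-0.60) and the G1 cyclin Ccnd1 (-0.59) were lower, and the tubulin Tubb4b was higher (0.27). The gate caps 2 cell cycle genes at 1 UMI together, and members were deeper than Ogn-0 cells. In cells of 5000 to 15000 UMIs 15 of 17 genes were still lower and 1 higher, with a median of -0.99. How far the cap sets the difference was not tested. Among arrest and p53 genes 3 of 11 were higher and 5 lower. Gas1, a membrane protein first found in growth arrest, was at 513, 638 and 722 against 208, 260 and 370 with no overlap (1.13, SE 0.07, adjusted p = 9.19e-10), while Mdm2 (-0.40) and Cdkn1a (-0.23) were lower.

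Ribosomal protein genes were lower in members by a small and even amount, 16 of 16 with a median of -0.41, for example Rps18 at 1535 against 2240 CPM (-0.59). In the mixed library 10 were lower and at day 0 15. Most hypoxia and glycolysis genes were not called, with 1 of 18 higher, 5 lower and a median of -0.11. Of immediate early genes 5 of 18 were higher and 3 lower. The hypoxia list had 2 higher and none lower in the mixed library alone, the immediate early list 7 and 1, and the arrest and p53 list 3 and none. Over all 9707 genes tested in that library 606 were higher and 614 lower. Of prostaglandin enzymes Ptgs1, cyclooxygenase 1, was higher (0.62) among 4 tested.

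Among members alone, 308 of 9119 genes changed with day in a fit with library as a term (3.38%; 255 or 2.80% rising and 53 or 0.581% falling). Slopes are log2 units per day. The count rests on the day 0 samples: it was 14 without day 0 A, 10 without day 0 B, 10 without both and 1 in the mixed library alone. Of the 10 genes named for day, Cd74 and Ptn were still called without day 0 A, and without day 0 B or without both only Cd74 was. Cd74, the MHC class II chaperone and a receptor of Mif, was at 29.5 and 41.8 CPM at day 0, 79.6 and 238 at day 6, 136 to 272 at day 10 and 426 to 622 at day 16 (0.25 per day, SE 0.02, adjusted p = 0.000242). The 3 samples of day 16 were above all others. Il6 was at 0.268 and 0.704 at day 0 and 18.4 to 47.8 later (0.25, adjusted p = 0.0261), and Rgcc, a complement-induced cell cycle regulator, at 3.49 and 6.69 and then 104 to 335 (0.24, adjusted p = 0.0414). Both stepped up after day 0 with no overlap. The growth factor Ptn (0.31, adjusted p = 0.00486) and Cxcl2 (0.24, adjusted p = 0.0144) rose as well.

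The falling genes were high at day 0 and low after it. Sema3d, a secreted guidance cue, was at 83.4 and 78.5 CPM at day 0 and 3.70 to 43.7 later (-0.08 per day, adjusted p = 0.0328), and Ptgs1 at 61.1 and 56.9 and then 13.9 to 38.7 (-0.07, adjusted p = 0.0359). Napsa, an aspartic protease, was at 104 and 94.8 and then 11.1 to 61.4 (-0.07, adjusted p = 0.0286). The enzyme Fmo1 (-0.08, adjusted p = 0.0356) and the lipid transfer protein Osbp2 (-0.10, adjusted p = 0.0297) fell too. Without day 0 Cd74 still rose (0.19, adjusted p = 0.0062), and Fmo1, Osbp2 and Napsa no longer fell. The day result is thus mostly a difference between day 0 and the later days. Day 0 samples also lacked immune cells, whose marker levels in members moved with day.

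By list, macrophage markers rose in members in 6 of 7 and hypoxia and glycolysis genes in 14 of 18, among the latter Bnip3 (0.11, adjusted p = 0.0273), Pgk1 (0.10, adjusted p = 0.0322) and Ldha (0.06, adjusted p = 0.034). Cell cycle genes rose in 7 of 17, MHC class II genes in 4 of 6, MHC class I genes in 3 of 11 and stromal cytokines in 5 of 14. Without day 0 the counts were 0 in each of these lists except 3 for MHC class II. With day 0 the proteoglycans and the CCN family had no called gene among 6 and 3, and without it 1 of 3 CCN genes fell. Mif had a slope of 0.07 per day in members (adjusted p = 0.0235). Of Mif and its receptors 3 of 5 were called as rising, and without day 0 only Cd74. Immune cells, which day 0 all but lacked, held 771 to 982 CPM of Mif in the later samples of the single library, above the 372 to 517 of members there, and the part of their RNA in this slope was not tested.

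The difference between members and Ogn-0 cells itself changed with day for 204 of 8999 genes (2.27%; 87 or 0.967% upward and 117 or 1.30% downward), and for 4 without day 0. Mmp3, for which no test is given, had log2 ratios of -4.11 to -2.49 at days 0 and 6 and -0.83 to -0.13 at days 10 and 16. Mmp3 aside, the largest upward slope among the genes named for this change was in Il33, an alarmin cytokine (0.14 per day, SE 0.02, adjusted p = 0.000505). The largest downward slopes were in Apod, a lipid-binding secreted protein (-0.16, SE 0.03, adjusted p = 0.0106), the transcript AW112010 (-0.15, SE 0.03, adjusted p = 0.00806) and Prelp (-0.14, SE 0.03, adjusted p = 0.0267). None of Il33, Apod, AW112010 and Prelp was called without day 0, and Prelp was not called in cells of 5000 to 15000 UMIs either (-0.11, adjusted p = 0.207).

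By the same gate line 15 held 240 Ogn-high cells, line 18 held 771, line 19 held 1879 and the WT samples held 588, from unequal numbers of samples and days. WT came only from days 6 to 16 of the mixed library, where line 24 held 405. There the shares were 12.5% in line 24 and 8.20% in WT at day 6, 16.7% and 12.01% at day 10, and 5.53% and 19.0% at day 16, with 1 sample of each per day. Among cells of at least 3000 UMIs, cut to 3000, these pairs were 11.0% and 3.93%, 11.4% and 6.41%, and 2.85% and 13.5%. Line 19, the other Mif knockout line, had 45.3% and 47.2% at day 0, but 17.7% to 20.8% when cut to 3000 UMIs, against 59.2% and 64.5% in line 24. Its later samples had 4.35% to 14.8%, those of line 15 0.907% to 4.50%, those of line 18 0.551% to 10.0% and WT 8.20% to 19.0%. With the same cut these ranges were 1.52% to 7.53%, 0.346% to 2.52%, 0.398% to 7.38% and 3.93% to 13.5%. The later samples of line 24 had 2.85% to 20.1% with that cut. Immune cells of the other lines and of WT held at most 4.29% with 3 or more Ogn UMIs, without the cut. The level of Ogn in Ogn-high cells, a description since Ogn set the gate, averaged 1258 CPM over the 10 samples of line 24, 945 in line 18, 858 in WT, 699 in line 19 and 606 in line 15. In the mixed library that line 24 shared with WT it was 780 ± 179 in line 24 and 858 ± 214 in WT (SD, n = 3 each), so line 24 was not the higher there. The value of 3 UMIs in CPM depends on depth, which differed between libraries and within the mixed one. There Ogn-high cells of days 6, 10 and 16 had medians of 4914.5, 5287 and 6951 UMIs in line 24. In WT the medians were 7187, 5530 and 4161.

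In 28 samples of the other lines with at least 20 cells in each gate, 5153 of 9834 genes differed between the gates (52.4%; 2671 or 27.2% higher and 2482 or 25.2% lower). Fitted alone, line 15 gave 17.2%, line 18 gave 22.9%, line 19 gave 42.0% and the WT samples gave 17.9%. These cells were not used to choose the members. Aspn was higher in Ogn-high cells of 27 of 28 samples (2.95, SE 0.14, adjusted p = 9.01e-22), by 2.44 in line 18 up to 3.20 in line 19 when each line was fitted alone. Omd, which passed the filter there, was higher in 26 of 28 (3.57, SE 0.14, adjusted p = 1.77e-24). Mme (2.25), Nid2 (2.09), Thbs1 (1.72) and Prss23 (1.40) were also higher in 28 of 28, Bmp4 in 27 (0.50), Fbln5 in 24 (1.29) and Adamts5 in 18 (0.89). Of the genes named as lower in line 24, Ccnb2 was lower in 28 of 28 (-1.68), Thy1 in 27 (-2.50), Col5a3 in 26 (-1.91), Fstl1 in 25 (-2.15), Itga6 in 25 (-1.93), Dcn in 24 (-2.48), Rgs1 in 24 (-1.92), Ly6e in 24 (-0.49) and Ccl8 in 23 (-1.49), all called, and Ly6c2 was below the count filter. Without Xist cells Ly6e was at -0.14 there and not called (adjusted p = 0.254). Of the genes called in both fits, 2352 of 2380 had the same direction, out of 2870 called in line 24 (82.0%) and 4780 in the other lines (49.2%) among 8888 tested in both. Across these genes, which are not independent replicates, the fold changes had a Pearson r of 0.81 and a Spearman rho of 0.75.

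Some gene lists had counts close to those of line 24 in the other lines: cell cycle 19 of 20 lower and 1 higher, ribosomal proteins 16 of 16 lower, interferon response 11 of 19 higher and 1 lower, and macrophage markers 7 of 7 lower. Others did not. Collagens were 10 higher and 6 lower of 17 with a median of 0.20, against 3 and 7 of 16 with a median of -0.22 in line 24. Without Xist cells they were 13 higher and 3 lower of 16, against 8 and none of 13 in line 24. Over all genes without Xist cells, 2667 were higher and 2463 lower of 9743 in the other lines. In line 24 these were 1385 and 1481 of 8815. Immediate early genes were 11 higher and 3 lower of 18 against 5 and 3, osteoblast genes 4 and 2 of 7 against 1 and 3, and MHC class I genes 8 higher of 11 against 5. More genes were called in the other lines over all genes too, 52.4% against 32.7%, and the difference between such counts was not tested. Gene by gene, the test described next gave 1 collagen with the larger and 2 with the smaller value in line 24, of 18. It gave 0 and 5 of 18 immediate early genes, 0 and 2 of 7 osteoblast genes and 0 of 11 MHC class I genes, against 1.41% and 2.34% of all genes.

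A test of the difference between line 24 and the other lines called 362 of 9675 genes (3.74%; 136 or 1.41% with the larger value in line 24 and 226 or 2.34% with the smaller). Bmp4 had a larger gate difference in line 24, by 1.06 (SE 0.16, adjusted p = 2.99e-05). Its level in Ogn-high cells of line 24, at a mean of 33.4 CPM, was within the range of the other lines' means, 30.0 to 55.3. Its level in Ogn-0 cells was the lowest of the 5, at 11.0 against 19.4 to 35.4. For Postn the difference was 2.59 (adjusted p = 6.97e-05): its means were 198 in Ogn-high and 167 in Ogn-0 cells of line 24, against 6.26 and 104 in line 19, 7.36 and 48.0 in line 18, 36.6 and 119 in WT and 54.4 and 60.6 in line 15. The gap between the line 24 means came mostly from day 0, at 206 against 28.3 and 204 against 83.6. Postn was lower in Ogn-high cells in 4 of 10 samples, day 10 A (185 against 336) and the 3 of the mixed library (155 against 219, 234 against 248 and 48.1 against 76.1), where line 24 thus had the direction of WT. The chemokine Cxcl12 (1.42, adjusted p = 0.00235; means of 83.6 and 72.3 in line 24, and at most 15.8 as a line mean of Ogn-high cells elsewhere, where 1 sample of line 15 reached 56.4 against 53.7 in the lowest of line 24), Ccn3 (0.95, adjusted p = 0.0055), the receptor Pdgfra (0.88, adjusted p = 0.00485) and Tgfbi (0.81, adjusted p = 0.00235) went the same way. Cxcl12 was lower in members of day 6 A (82.6 against 98.9), day 10 A (119 against 169), day 16 A (68.3 against 73.2) and day 6 C (62.05 against 62.3). At day 0 it was 72.4 against 18.0 and 81.3 against 28.7. Tgfbi was lower in members of day 16 A (86.5 against 129) and day 16 B (125 against 134). Ccn3 was lower in those of day 16 A (27.3 against 31.5) and Pdgfra in those of day 6 C (21.6 against 30.9). The gate difference was lower in line 24 for Col1a1 (-1.52, adjusted p = 0.00294), Mgp (-0.96, adjusted p = 0.00106), Col3a1 (-0.87, adjusted p = 0.0172), Fn1 (-0.49, adjusted p = 0.0124) and Mmp14 (-0.45, adjusted p = 0.00339). Mean Col1a1 was 169 in Ogn-high and 447 in Ogn-0 cells of line 24, 201 and 594 in line 15 and 334 and 505 in WT. It was 799 and 600 in line 18 and 1000 and 634 in line 19, so lower Col1a1 in Ogn-high cells was not particular to line 24. Mean Mgp was lower in Ogn-high cells of lines 24 (279 and 400) and 18 (1793 and 1918), and higher in line 15, line 19 and WT. In line 24 Col1a1 was not called without Xist cells. Of the genes named above as the largest fold changes in line 24, Bmp4 and Ly6e were called, Ly6e with the deeper deficit in line 24 (-1.60, adjusted p = 4.54e-05). Prss23 was called in cells of 5000 to 15000 UMIs (0.58, adjusted p = 0.0112; 0.29, adjusted p = 0.185 with all cells) and Adamts5 without Xist cells (0.83, adjusted p = 0.0472; 0.75, adjusted p = 0.12 with all cells).

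Levels, as opposed to differences, are given as a description. Ccn5 averaged 134 CPM in Ogn-high and 27.0 in Ogn-0 cells of line 24, 71.6 and 29.1 in WT, 49.97 and 23.0 in line 15, 39.4 and 8.55 in line 18 and 3.66 and 1.98 in line 19. The mean of line 24 includes day 0 and the single library, which WT lacks. In the mixed library at days 6 to 16 Ccn5 was 82.6 ± 33.9 in Ogn-high cells of line 24 and 71.6 ± 15.0 in those of WT (SD, n = 3 each), and the groups overlapped. The 2 knockout lines did not overlap for Ccn5 in Ogn-high cells, with 47.2 as the lowest of line 24 and 14.6 as the highest of line 19. Mmp3 averaged 52.7 and 172 in line 24 and at most 13.5 as a line mean in either gate of the other lines. The highest samples of Ogn-high cells were at 60.4 in line 18, 30.5 in line 19 and 16.6 in line 15. These lay within the 8.09 to 90.8 of line 24. In Ogn-0 cells the highest sample elsewhere, 33.0 in line 15, was below the lowest of line 24, 36.1. Within the mixed library Mmp3 in Ogn-high cells was 8.09 to 88.8 in line 24 and 0.960 to 15.1 in WT, and Postn 48.1 to 234 and 23.5 to 53.7, both with overlap. Cxcl12 was 53.7 to 112 in line 24 and 6.80 to 9.39 in WT, with none.

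**Figure D5:**
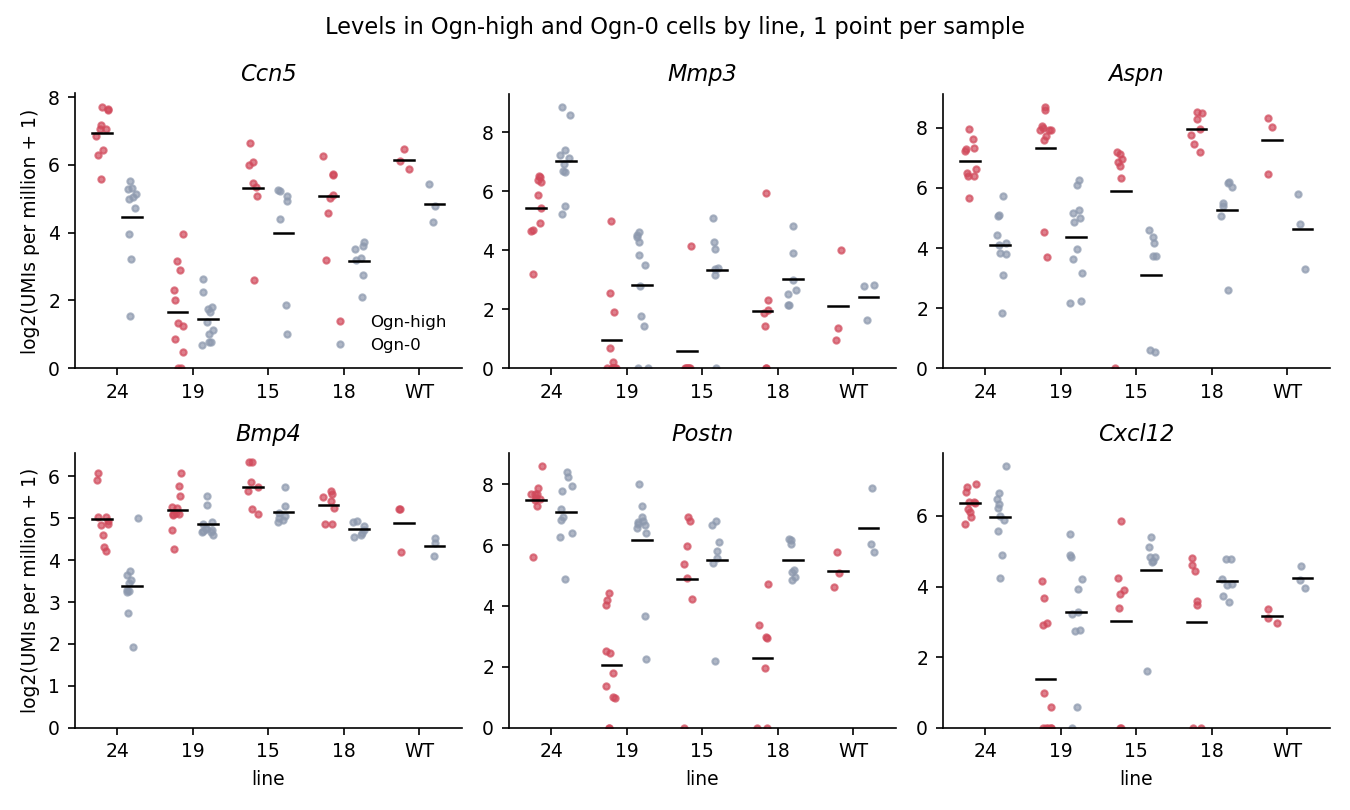
Levels of Ccn5, Mmp3, Aspn, Bmp4, Postn and Cxcl12 (y axis, log2 of CPM plus 1) in Ogn-high and Ogn-0 cells by line (x axis), 1 point per sample with at least 20 cells in each gate and a bar at the mean. The bars of Mmp3, Postn and Cxcl12 in Ogn-high cells stand highest in line 24, and Ccn5 averages 134 there in line 24 and 3.66 in line 19.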

How the data were processed

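Counts were UMI counts per gene and cell barcode as the authors deposited them, made with Cell Ranger 6.0.0 on mm10 per the submitters' processing notes, with hashtag counts for the same barcodes. Coordinates and promoters are from GENCODE and RefSeq on GRCm38, the same assembly. Barcodes were kept with at least 300 genes, at most 15% mitochondrial UMIs and a top hashtag of at least 20 counts and 3 times the second. The last step removes doublets between samples only, and no doublet caller was run. Counts of the 32285 gene rows were summed per sample and gate where both gates held at least 20 cells, so depth per value was set by the cells summed. Tests were edgeR 4.0.16 quasi-likelihood fits in R 4.3.3 (filterByExpr, TMM, Benjamini-Hochberg over all genes tested, threshold 0.05), tried on simulated data, with DESeq2 1.42.0 as an alternative. Both gates of a sample share its cells' source, so sample was a block. Shares have exact (Clopper-Pearson) 95% intervals. A level is in CPM, UMIs per 1000000 UMIs of the summed cells. It is not scaled by gene length, so levels of different genes, marker sums included, are set side by side as detection only.

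The members, the gene lists and the markers were chosen with earlier results of these data known. Named genes were the 10 largest fold changes each way among called genes with a mean log2 CPM of at least 4 and the same direction of CPM in every sample, the 5 largest slopes each way for day, and 2 to 4 examples from each list. Some genes that this rule names are not reported here. Further genes named for the difference between lines and for the Xist comparison were chosen after their values were seen. Alternatives were other scalings, filters, gates, depth windows, libraries and days, and each sample left out in turn.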

Additional observations from a re-analysis of the deposited data

Results flagged for a closer look

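The excess of Ccn5 in members over Ogn-0 cells was far larger in day 6 A than in the other samples, at a log2 ratio of 4.79 against 1.57 to 2.96 in the other 9. Ccn5 in the Ogn-0 cells of that sample was 1.90 CPM and rested on 1 UMI, so the ratio, computed with 0.5 added to each count, has wide counting error. It was the 1 value of this kind among 25 sets of sample values looked at, and chance alone sets apart about 1 set in 20. The gate difference of Bmp4 was larger in line 24 than in the other lines by 1.06 on the log2 scale, by a test of that difference. It was 1.32 in cells of 5000 to 15000 UMIs, 1.03 without Xist cells and 0.95 without day 0. The gate difference of Ly6e was lower in line 24 than in the other lines by the same test, at -1.60. It was -1.82 in cells of 5000 to 15000 UMIs, -1.31 without Xist cells and -1.60 without day 0.

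The gate difference depended on day, by a test of that dependence, in 9 further named genes. Per day, it rose by 0.14 in Il33, by 0.11 in Cdt1 (a replication licensing factor), by 0.11 in Tmem209 and by 0.11 in Col3a1. It changed by -0.16 in Apod, -0.15 in AW112010, -0.14 in Prelp, -0.14 in Kbtbd11 and -0.13 in Gm4951. Without the day 0 samples none of the 9 passed the threshold, with adjusted p between 0.282 and 0.910. Without Xist cells Col3a1 gave 0.03 (adjusted p = 0.678), and in cells of 5000 to 15000 UMIs Prelp gave -0.11 (adjusted p = 0.207).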

How the results depend on the processing

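The gate comparison in line 24 called 2941 genes, 2939 with DESeq2's size factors, 2468 with DESeq2, 3777 with no count filter (41.3% of them higher against 48.1%), 2235 in cells of 5000 to 15000 UMIs, 2521 without day 0, 1220 in the mixed library alone, and 2560 to 2955 with 1 sample left out. Without the block on sample, which pairs the gates of 1 sample, it called 2175. The named genes kept their direction in every alternative run that tested them, except Mif, which was never called, at 0.065 in the mixed library alone, 0.013 at day 0 alone and 0.049 without Xist cells. Of 26 runs, 22 tested Ccl8, 24 tested Ly6c2, Thy1 and Rgs1, and 25 tested Fbln5, Fstl1 and Col5a3. Dcn was not called without Xist cells (-0.80). Of 40 shares of members recomputed with cells cut to 3000 UMIs, at least 5 Ogn UMIs, stricter cells or stricter hashtags, 23 left their main interval. The day fit was the least stable. It called 308 genes, but 1346 with no count filter, 117 with at least 5 Ogn UMIs, 512 without the 5% of cells with most UMIs, 537 in the single library, 1 in the mixed library, 10 without day 0, and 10 to 488 with 1 sample left out (14 without day 0 A, 10 without day 0 B, 177 without day 16 A, 488 without day 6 C). Without day 0 the slopes of Osbp2 (0.0056), Fmo1 (0.015) and Napsa (0.0055) changed sign. The change of the gate difference with day called 204 genes, 4 without day 0 and 317 without Xist cells. The difference between lines called 345 to 384 genes. There, uncalled values changed sign for Nid2 (0.023), Ccnb2 (0.093) and Itga6 (-0.46) in cells of 5000 to 15000 UMIs, for Col5a3 (0.22) and Itga6 (-0.0085) without Xist cells, and for Thbs1 (-0.25) without day 0. The value of Mmp3, for which no test is given, changed sign without day 0 too (0.33). The cause of these changes was not tested. From day 6 on 34.2% to 35.6% of members had exactly 3 Ogn UMIs, the lowest count the gate admits.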
